A study of Mus musculus with 8 samples.

Results

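The genes described here are 7 transcription factor genes of the mouse T lineage, *Tcf7*, *Lef1*, *Gata3*, *Gfi1*, *Myb*, *Satb1* and *Bach2*, read through the histone mark H3K27ac. They were chosen by name as regulators of early T cell development. They are 7 of the 21535 protein-coding genes whose strand was known, out of 21900 in the RefSeq annotation of the mouse genome GRCm38. For each gene, the peaks within the gene body and the 50 kb on either side were collected, a span called the window below.

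The study deleted IkE120, an enhancer of *Ikzf1*, in P5424 cells, a mouse line that it describes as only roughly like T cell precursors. H3K27ac chromatin immunoprecipitation was sequenced from 1 library of wild-type (wt) cells and from 1 library of cells with the deletion (ΔIkE120). These are 2 of the 8 libraries of the series. The others hold chromosome contacts of the *Ikzf1* promoter and were not used here. The ΔIkE120 cells are homozygous for the deletion, which was made with CRISPR/Cas9 and a pair of guide RNAs, and they are a clone. Whether the cells used for this assay had been stimulated is not stated. With 1 library per genotype there are no replicates, so every difference is a difference between these libraries, with no error and no test. The libraries were given as lists of broad peaks, with 34553 peaks over 25189952 bases in wt and 29902 peaks over 22143580 bases in ΔIkE120. The bases called in ΔIkE120 were 0.879 of those in wt, a log2 ratio of -0.19. The sequencing depth is unknown, and how much of this ratio comes from depth was not tested.

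Acetylation of lysine 27 on histone H3 marks nucleosomes at active promoters and enhancers, and genes that define a cell type often carry it in long clusters of peaks around them. Progenitors that enter the thymus receive Notch signals, which switch on *Tcf7* and *Gata3*, and the factors made from these genes go on to open and use the regulatory elements of the T lineage. *Lef1* is the closest relative of *Tcf7*, *Gfi1* encodes a repressor, *Myb* a regulator of progenitors and of thymocytes, *Satb1* an organizer of chromatin and *Bach2* a repressor that restrains effector programs.

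The label of the cells was checked on marker genes. A start peak, meaning a peak of a list that overlaps the 1 kb on either side of the outermost annotated start, was found at 9 of 9 T cell markers (*Cd3e*, *Cd3d*, *Cd3g*, *Lck*, *Ptcra*, *Rag1*, *Cd8a*, *Cd4* and *Thy1*) in both lists. Of 5 B cell markers, 2 had one in wt (*Ebf1* and *Blk*) and 1 in ΔIkE120 (*Ebf1*), while *Cd79a*, *Cd79b* and *Pax5* had none. Of 6 myeloid markers only *Spi1* had one, in both lists, and of 4 erythroid markers *Epor* and *Klf1* did. The 4 embryonic stem cell markers and the 4 fibroblast markers had 0 in either list. Of all 21535 genes, 44.5% had a start peak in wt and 43.8% in ΔIkE120. The T cell markers were thus the only marker list with a start peak at every gene, in both genotypes, and some markers of other blood lineages had one as well. The starts of *Cd3d* and *Cd3g*, at 44981769 and 44980431, are so close that the spans searched overlap, so these are not separate observations.

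Of the 7 transcription factor genes, 6 had a start peak in wt, where 44.5% of all genes did, and 6 in ΔIkE120, where 43.8% did. They were the same genes, all but *Bach2*, so that 6 had it in both lists (43.4% of all genes). None of the 7 had a start peak in wt alone (1.1% of all genes) or in ΔIkE120 alone (0.492%). A called peak at the start was thus present or absent alike in both genotypes for each of these genes.

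The windows of these genes were densely marked. They held 78 peaks over 66275 bases in wt and 70 peaks over 58521 bases in ΔIkE120. With equally many top peaks by -log10 q taken from both lists, the wt count was 65 and the ΔIkE120 count 70, so the order of the counts turned, while the covered bases stayed higher in wt, at 61919. The share of the window under peaks had a median of 5.81% over the members in wt and 5.20% in ΔIkE120, against 1.74% and 1.54% over all genes, and 3.18% and 2.88% over genes with a start peak. In wt it ran from 0.699% at *Bach2* to 10.3% at *Gfi1*, and 6 of the 7 lay above the upper quartile of all genes, 3.72%. In ΔIkE120 it ran from 0.421% to 9.07% at the same genes, and 5 lay above the upper quartile, 3.36%, since *Satb1* at 3.32% fell short of it. The single peaks did not stand out. Their -log10 q had a median of 4.13 in wt and 4.29 in ΔIkE120, against 4.12 and 4.47 in the whole lists. The fold enrichment that the peak caller gave the members' peaks had a median of 2.33 in wt and 2.42 in ΔIkE120, below the 3.04 and 3.16 of the whole lists, while their median length of 722 and 680 bases was above the 603 and 628 of the lists.

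Between the lists, the covered bases (bases of the window under any peak) were lower in ΔIkE120 at 6 of the 7 genes, while 72.6% of all genes with at least 1000 covered bases in either list were lower too. The median log2 ratio of ΔIkE120 to wt was -0.17 over the members and -0.12 over the 14577 such genes, and the members' summed bases stood at a ratio of 0.883. This is close to the 0.879 of the lists as a whole. When each ratio was divided by that of the lists, which adds 0.19 on the log2 scale, the median was 0.014, and 2 of the 7, *Lef1* and *Bach2*, remained below 0, where 38.3% of all genes did. *Gata3*, *Gfi1*, *Myb* and *Satb1* then turned to values from 0.0043 to 0.080. Only *Bach2* was at least 1.5 fold lower in ΔIkE120 (8.07% of all genes were), and 0 of the 7 were 1.5 fold higher (0.858%). The number of peaks was lower in ΔIkE120 at 4 of the 7, *Lef1*, *Myb*, *Gfi1* and *Bach2*, and among all genes with a peak in either list at 45%.

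**Figure D1:**
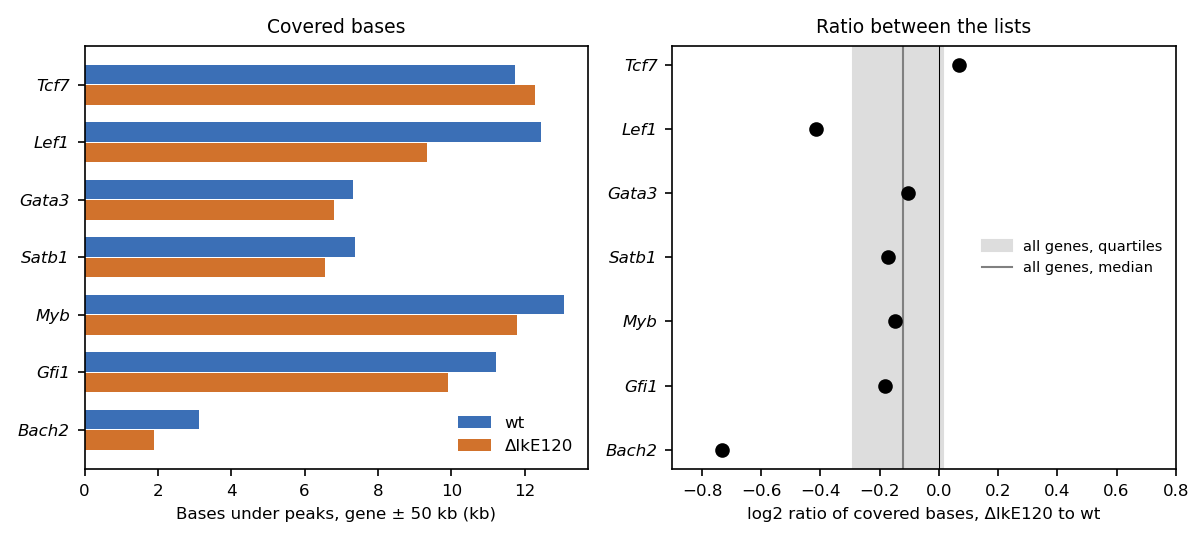
Left, bases under H3K27ac peaks in kb within each gene and 50 kb on either side, 1 bar for the wt and 1 for the ΔIkE120 library. Right, log2 ratio of these bases, ΔIkE120 to wt, with the median (-0.12) and quartiles (-0.29 to 0.01) of 14577 genes, where *Lef1* at -0.42 and *Bach2* at -0.73 lie below the lower quartile and *Tcf7* at 0.07 above the upper one; divided by the ratio of the lists, *Gata3*, *Gfi1*, *Myb* and *Satb1* turn from below to above 0.

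Most peaks around these genes were found in both lists. Of the 78 wt peaks, 65 (83.3%, exact binomial 95% interval 73.2% to 90.8%) were overlapped by a ΔIkE120 peak, against 74.4% of the whole wt list. Such an interval covers the count of peaks only and gives no spread between libraries. It takes the peaks as independent, although they cluster in the windows of 7 genes. Of the 70 ΔIkE120 peaks, 64 (91.4%, 82.3% to 96.8%) were overlapped by a wt peak, against 86.4% of the whole list. Where an overlap had to reach 50% of the peak, the shares were 70.5% for wt and 84.3% for ΔIkE120, against 68.1% and 82.2% of the whole lists. With equally many top peaks, which list had the larger share turned round, with 90.8% in wt and 84.3% in ΔIkE120, against 81.4% and 82.3% of the whole lists. The 13 wt peaks without a partner were mostly weak, with a median -log10 q of 1.79 against 4.88 for the overlapped ones. Their highest value was 4.13. In the whole wt list these medians were 2.15 and 5.79, so such peaks were weak there as well. The 6 ΔIkE120 peaks without a partner had a median of 2.83 and a highest value of 4.93. In the whole ΔIkE120 list the median of such peaks was 2.04. Among 54 peaks that paired 1 to 1, 34 (63.0%) were shorter in ΔIkE120 and 34 had a higher fold enrichment there, while over the 22698 such pairs of the whole lists 58.4% were shorter and 59.6% had the higher enrichment. Over all pairs, lengths thus leaned lower and enrichments higher in ΔIkE120, at the members as in the lists. These are separate counts, and whether the same peaks were both shorter and more enriched was not tested.

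**Figure D2:**
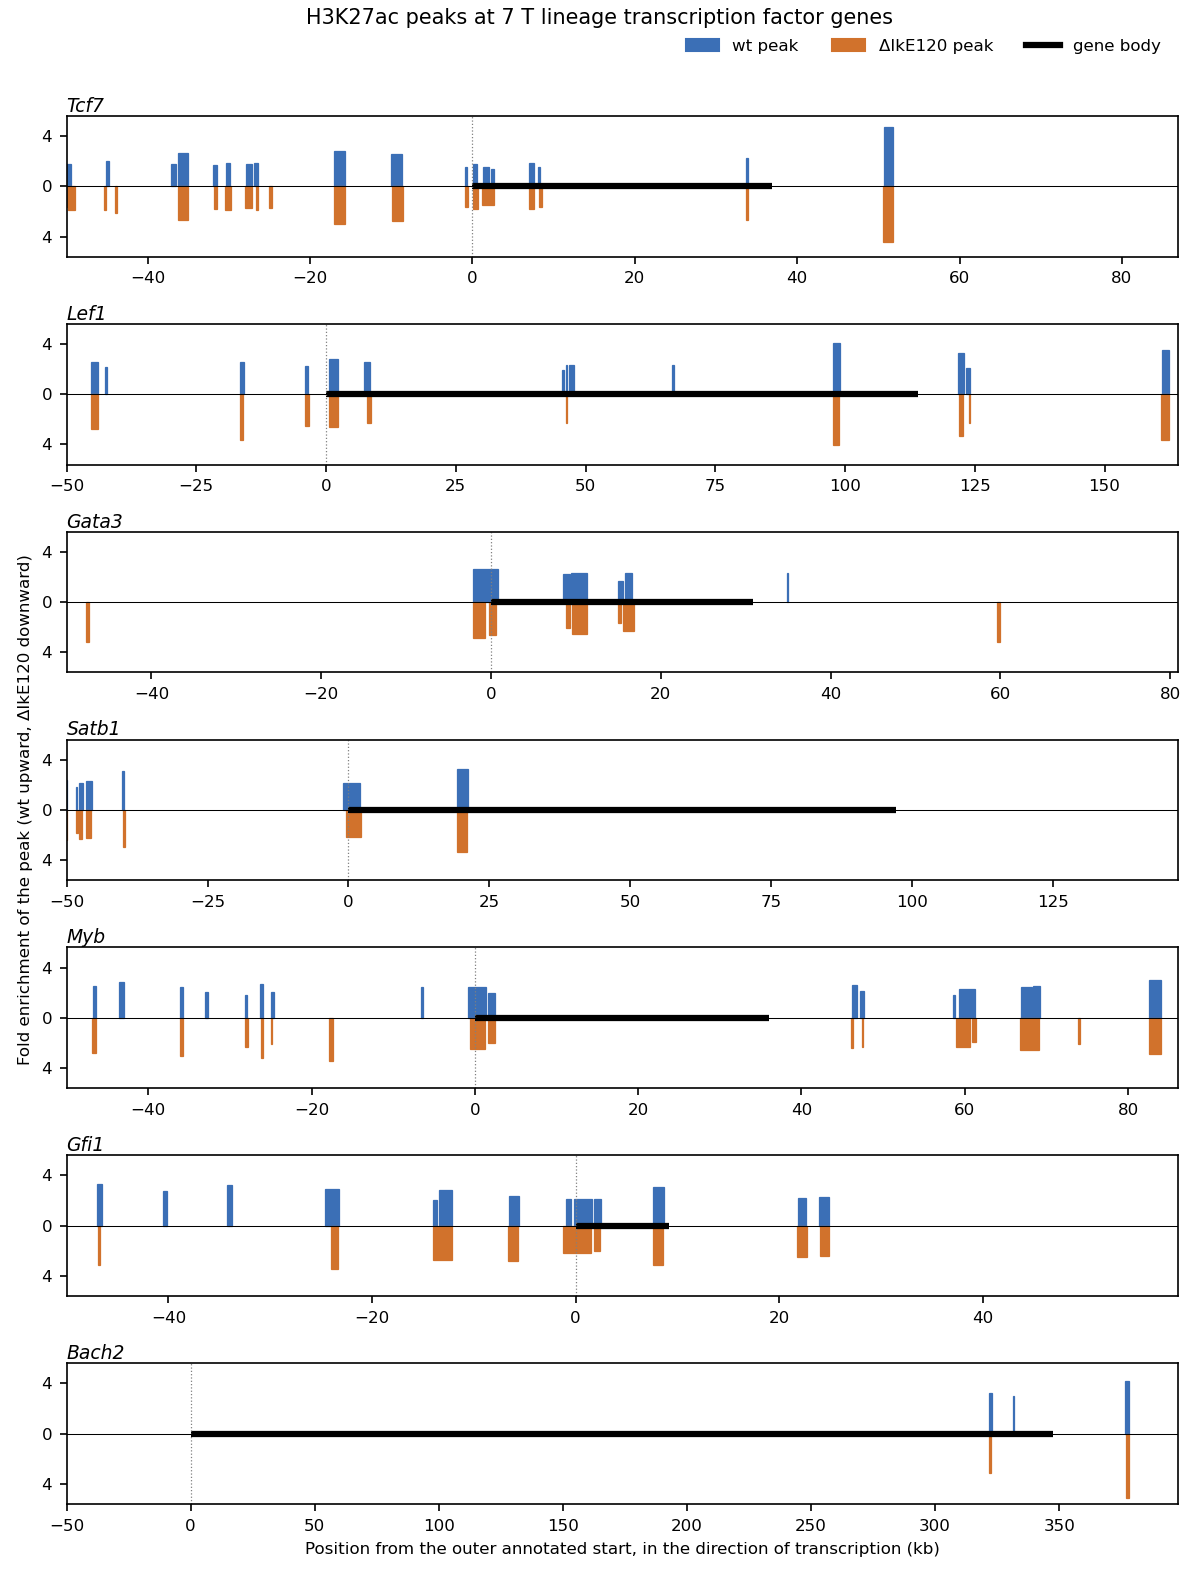
H3K27ac peaks in the windows of the 7 genes, plotted by position in kb from the outer annotated start along the direction of transcription, with bar height giving the fold enrichment of each peak in wt (upward) and ΔIkE120 (downward) and a thin outline that widens the narrowest bars slightly. Peaks of both lists face each other at most positions, 13 wt and 6 ΔIkE120 peaks have no partner, and the *Bach2* start has no peak in either list.

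*Tcf7* encodes TCF-1, an HMG box factor that is among the earliest of the T lineage. The gene lies on the minus strand of chromosome 11, the chromosome of *Ikzf1*, from 52246527 to 52283383. Its window held 18 peaks over 11720 bases in wt and 19 peaks over 12283 bases in ΔIkE120, a log2 ratio of 0.07. It was the only member with more covered bases in ΔIkE120, and 82.6% of all genes had a lower ratio. The outer start itself carried no peak. It lay in a gap of 740 bases in wt and 651 in ΔIkE120, between a peak inside the gene (52282830 to 52283272 in wt, 52282752 to 52283282 in ΔIkE120) and a shorter one upstream. The inner peak had a fold enrichment of 1.77 in wt and 1.81 in ΔIkE120 with a -log10 q of 6.83 and 6.91, values that hardly differed, and it contained, in both lists, a listed start (one of the RefSeq promoter table, as opposed to the outer bound of the gene) at 52283014. Of all listed starts with a peak within 1 kb, 75.4% in wt and 75.1% in ΔIkE120 lay inside a peak, as this one did.

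Upstream of *Tcf7*, 10 peaks covered 8169 bases in wt and 12 covered 7860 in ΔIkE120, more than the start and the body together. Several of them overlay *Gm30217*, a long noncoding RNA gene. The upstream peak with the highest -log10 q, centred 35.6 kb before the start in wt and 35.7 kb in ΔIkE120, ran from 52318420 to 52319604 in wt with a fold enrichment of 2.61 (-log10 q of 14.7) and from 52318421 to 52319671 in ΔIkE120 with 2.71 (12.6). By fold enrichment, the upstream peak from 52299097 to 52300394 in wt and from 52299109 to 52300402 in ΔIkE120 was higher, with 2.82 and 2.99. The longest wt peak was also upstream, at 52292075 to 52293444 (1370 bases, fold enrichment 2.54), and faced a ΔIkE120 peak of 1298 bases with 2.80. In ΔIkE120 the longest peak was instead inside the gene, from 52280719 to 52282194 (1476 bases), where wt had separate peaks of 367 and 807 bases. The peak with the highest -log10 q in the window, 31.7 in wt and 27.4 in ΔIkE120, belongs to a neighbour, since it contains the listed start of *Skp1*, a subunit of ubiquitin ligases, at 52231995. A wt peak of 660 bases at 52319859 to 52320518 (-log10 q of 2.76) had no partner, nor did ΔIkE120 peaks at 52327214 to 52327426 (2.15) and 52308123 to 52308406 (1.19).

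Joined over gaps of up to 12.5 kb, the peaks around *Tcf7* formed a region of 15288 covered bases in wt, which ranked 3 of 18382 such regions by covered bases, and of 13288 in ΔIkE120, which ranked 3 of 16720. The wt region spanned 86.9 kb with 21 peaks and the ΔIkE120 region 67.0 kb with 20 peaks, and both held the outer start of the gene. Both ran past the upstream end of the window, at 52333383, and within the window the region covered 10454 bases in wt and 10783 in ΔIkE120, so the larger total of wt came from the 4834 bases outside it, against 2505 in ΔIkE120. In either genotype, few stretches of the genome held as many bases under peaks. The rank was 2 in both lists when gaps of up to 10 kb were joined, and 7 in wt and 6 in ΔIkE120 with gaps of up to 15 kb.

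*Lef1* encodes the HMG box factor LEF-1, which shares many target sites with TCF-1. It lies on the plus strand of chromosome 3, from 131110297 to 131224357. The window had 14 peaks over 12446 bases in wt and 10 peaks over 9324 bases in ΔIkE120, a log2 ratio of -0.42, or -0.23 relative to the lists. Of all genes, 15.1% had a lower ratio. Its start peak began inside the gene, 473 bases past the outer start in wt and 469 in ΔIkE120. It ran from 131110770 to 131112503 in wt (1734 bases, fold enrichment 2.82, -log10 q of 17.8) and from 131110766 to 131112507 in ΔIkE120 (1742 bases, 2.60, 15.9). This peak was the longest and had the highest -log10 q of the window in both lists, and its extent differed by few bases.

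The smaller coverage at *Lef1* came mostly from the gene body. There, 6 wt peaks covered 4328 bases and 3 ΔIkE120 peaks 2279, while upstream peaks covered 3108 bases in wt against 2699 in ΔIkE120, and downstream peaks 3276 against 2604. Of the 4 wt peaks with no partner, 3 were in the body. The strongest of them, at 131157073 to 131158044 (972 bases, fold enrichment 2.35, -log10 q of 3.67), lies near a listed inner start at 131156294, around which 3 wt peaks covered 879 bases within 1 kb on either side and 1 ΔIkE120 peak covered 283. The next was upstream of the gene, at 131067704 to 131068135 (-log10 q of 1.79), followed by one at 131155732 to 131156094 (1.39). No ΔIkE120 peak lacked a wt partner here. Of the 10 regions found in both lists, 6 had a higher fold enrichment in ΔIkE120 and 4 a lower one. The ratio of ΔIkE120 to wt was highest, at 1.41, for an upstream peak, from 131093671 to 131094418 in wt (fold enrichment 2.56, -log10 q of 2.16) and from 131093789 to 131094267 in ΔIkE120 (3.61, 6.19). The peak 3.77 kb upstream in wt (3.63 kb in ΔIkE120), over the noncoding gene *Gm36603*, had a fold enrichment of 2.21 and a -log10 q of 5.30 in wt and of 2.54 and 11.1 in ΔIkE120. A peak far inside the gene, at 131207904 to 131209250 in wt, had the highest enrichment of the window in both lists, 4.10 in wt and 4.02 in ΔIkE120. With only the stronger peaks, those with a -log10 q no lower than the median of their list, the log2 ratio of *Lef1* was -0.07.

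*Gata3* encodes a zinc finger factor needed for T lineage specification and later for CD4 cells. On the minus strand of chromosome 2, it extends from 9857078 to 9887953 with its outer start. The window had 6 peaks over 7317 bases in wt and 8 peaks over 6801 bases in ΔIkE120, a log2 ratio of -0.11, which was 0.080 relative to the lists and 0.049 with equally many top peaks of both lists. At the outer start, the longest wt peak of the window, from 9887079 to 9890045 (2967 bases, fold enrichment 2.62, -log10 q of 5.54), faced a pair of ΔIkE120 peaks, from 9887313 to 9888158 (846 bases, 2.60, 4.74) and from 9888685 to 9890068 (1384 bases, 2.87, 6.05). The outer ends of this pair nearly matched the wt peak, and what was missing lay mostly between them. These peaks also overlie *9230102O04Rik*, a long noncoding RNA gene.

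The listed start of *Gata3*, at 9878600, lay in a narrow gap of 183 bases in wt and 326 in ΔIkE120, flanked by peaks on both sides. The peak downstream of it, from 9876623 to 9878489 in wt (1867 bases) and from 9876632 to 9878376 in ΔIkE120 (1745 bases, the longest of that list here), had the highest -log10 q of the window, 9.48 in wt and 10.1 in ΔIkE120. The peak upstream of it had 825 bases in wt and 424 in ΔIkE120. So the outer and the listed start were both marked in both lists, with shorter peaks in ΔIkE120. Peaks of ΔIkE120 with no partner lay at 9827975 to 9828301 (327 bases, -log10 q of 4.93) and, inside the neighbouring gene *Taf3*, at 9935287 to 9935665 (379 bases, 3.81). The former had the highest -log10 q among all peaks of 1 list alone at the members. In wt, a peak of 215 bases at 9852925 to 9853139 (1.13) had no partner. Joined over 12.5 kb, the peaks at the starts and in the body formed a region that ranked 96 in wt and 121 in ΔIkE120, against 46 and 62 with gaps of up to 10 kb and 166 and 193 with gaps of up to 15 kb.

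*Gfi1* encodes a zinc finger repressor that keeps other blood lineage programs down in early T cells. It is the shortest of the genes, from 107716655 to 107725805 on the minus strand of chromosome 5. The window had 13 peaks over 11223 bases in wt and 9 peaks over 9895 bases in ΔIkE120, a log2 ratio of -0.18, which was 0.0043 relative to the lists and 0.020 with flanks of 10 kb. At the start, wt had peaks of 1856 bases (107724146 to 107726001, fold enrichment 2.09, -log10 q of 7.15) and 509 bases (107726218 to 107726726, 2.11, 7.34), and ΔIkE120 a single peak of 2793 bases (107724285 to 107727077, 2.14, 6.99). Here the ΔIkE120 list had the longer stretch, the reverse of *Gata3*, and the longest peak of the window was a start peak in each list.

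Elsewhere around *Gfi1*, the peak with the highest -log10 q in wt was at 107737975 to 107739213 (fold enrichment 2.86, -log10 q of 10.3), over the noncoding gene *Gm42147*, where ΔIkE120 had a peak of 1860 bases with 2.75 and 7.06. In ΔIkE120 it was at 107749120 to 107749792 (673 bases, 3.46, 7.44), inside *Evi5*, where the wt peak had 1395 bases with 2.90 and 6.81. The upstream flank had the largest difference in covered bases, with 7 peaks over 5318 bases in wt and 4 over 3702 in ΔIkE120. The body had 1782 bases in wt and 1483 in ΔIkE120, while the start (2365 and 2793) and the downstream flank (1758 and 1917) had more in ΔIkE120. The wt peaks with no partner, at 107759599 to 107760037 (439 bases, -log10 q of 3.70) and 107765963 to 107766303 (341 bases, 1.41), are both in the upstream flank and inside *Evi5*. No ΔIkE120 peak lacked a partner. Joined over 12.5 kb, the wt peaks formed a region of 55.7 kb that ranked 26 and the ΔIkE120 peaks one of 32.6 kb that ranked 50. The wt region reached the peak at 107772351 to 107772857 only through the wt peaks with no partner. ΔIkE120 had a peak there too, at 107772485 to 107772730, but outside its region, which ended at 107749792. With gaps of up to 10 kb the ranks were 11 and 20, and with gaps of up to 15 kb 28 and 34.

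*Myb* encodes c-Myb, which supports progenitors and the survival of thymocytes. It lies on the minus strand of chromosome 10, from 21124930 to 21160984. The window had 17 peaks over 13065 bases in wt, the most covered bases of any member in wt, and 15 peaks over 11786 bases in ΔIkE120, a log2 ratio of -0.15, or 0.037 relative to the lists. The start lay inside a peak in both lists, from 21159656 to 21161879 in wt (2224 bases, fold enrichment 2.48, -log10 q of 11.6) and from 21159697 to 21161583 in ΔIkE120 (1887 bases, 2.51, 11.9). In wt this was the longest peak of the window, and in ΔIkE120 it had the highest -log10 q. The gene body beyond the start region was otherwise bare, with 1 further peak per list, of 924 bases in wt and 916 in ΔIkE120.

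Most of the mark around *Myb* was downstream, toward *Ahi1*, where 7 peaks covered 6856 bases in wt and 7 covered 6721 in ΔIkE120. The outermost, centred 83.3 kb from the start in both lists and inside *Ahi1*, ran from 21076930 to 21078403 in wt and had the highest -log10 q of the wt window, 11.99, against 9.35 in ΔIkE120. The longest ΔIkE120 peak, from 21091849 to 21094225 (2377 bases), faced wt peaks of 794 and 1314 bases. The downstream group was thus present at nearly the same extent in both lists. Upstream, 8 wt peaks covered 3061 bases and 6 ΔIkE120 peaks 2262. Of the 4 wt peaks with no partner, those with the highest -log10 q were at 21203994 to 21204621 (4.13), 21193611 to 21194076 (2.56) and 21167293 to 21167572 (1.60), all upstream. In ΔIkE120, peaks at 21178381 to 21178894 (3.51), over the noncoding gene *Gm40608*, and 21086828 to 21087124 (1.32) had none.

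The last of these peaks decided how the downstream group was joined. With gaps of up to 12.5 kb, the ΔIkE120 peak at 21086828 bridged the stretch between the *Ahi1* peak and the rest, and the region that resulted, of 88.7 kb with 12541 covered bases, ranked 5 of 16720. In wt the stretch was not bridged, and the region with most covered bases, of 42.3 kb with 6273 bases, ranked 151 of 18382. It ran from 21036060 to 21078403, on the *Ahi1* side and for the most part outside the window, which begins at 21074930. Of the ΔIkE120 region, 6721 bases lay in the window. With gaps of up to 15 kb the ranks were 21 in wt and 11 in ΔIkE120, and with gaps of up to 10 kb 372 and 52, so the ranks at 12.5 kb say little about the amount of mark at *Myb*. At *Lef1* the ranks at 12.5 kb were 673 in wt and 599 in ΔIkE120. *Bach2* ranked far lower, at 5276 of 18382 in wt and 8436 of 16720 in ΔIkE120, but these ranks are of different regions. The wt region, from 32560055 to 32570223, held peaks in the body of *Bach2*. The ΔIkE120 region, from 32615366 to 32616451, was the single peak at the start of the neighbour *Casp8ap2*.

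*Satb1* encodes a chromatin organizer that is abundant in thymocytes. It lies on the minus strand of chromosome 17, from 51736187 to 51833290. The window had 7 peaks in each list, over 7376 bases in wt and 6548 in ΔIkE120. The log2 ratio was -0.17, or 0.014 relative to the lists. All 7 wt and all 7 ΔIkE120 peaks had a partner, which held for no other member. The start lay in the longest peak of the window, from 51831240 to 51834241 in wt (3002 bases, fold enrichment 2.18, -log10 q of 9.95) and from 51831089 to 51833662 in ΔIkE120 (2574 bases, 2.19, 9.86). The wt peak reached further upstream of the start, and the enrichment was nearly equal.

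The highest -log10 q at *Satb1* belonged to a peak inside the gene, from 51812161 to 51814070 in wt (1910 bases, fold enrichment 3.27, -log10 q of 14.1) and from 51812283 to 51814088 in ΔIkE120 (1806 bases, 3.37, 14.6). Of the listed inner starts nearby, that at 51812184 lay inside the wt peak and 99 bases outside the ΔIkE120 peak, and that at 51812054 lay 107 bases outside the wt peak and 229 outside the ΔIkE120 peak. The rest of the gene had no peak in either list. In the upstream flank, 5 peaks covered 2752 bases in wt and 2414 in ΔIkE120, from 40.0 kb (wt) and 39.8 kb (ΔIkE120) before the start to the end of the window. With peaks beyond the window they formed a joined region of 6714 covered bases in wt, which ranked 120, and of 5612 in ΔIkE120, which ranked 160. Within the window this region covered 2464 bases in wt and 2168 in ΔIkE120, so most of it lay outside. These ranks were 58 and 89 with gaps of up to 10 kb, and 195 and 255 with gaps of up to 15 kb. That region does not contain the start.

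*Bach2* encodes a BTB and leucine zipper repressor, known in lymphocytes for holding back effector differentiation. It is the longest of the genes, from 32238413 to 32586109 on the plus strand of chromosome 4. The window had 3 peaks over 3128 bases in wt and 2 peaks over 1884 bases in ΔIkE120, a log2 ratio of -0.73, or -0.55 relative to the lists. Of all genes, 5.01% had a lower ratio. Relative to the lists it was short of 1.5 fold, and so was the log2 ratio of -0.33 with flanks of 100 kb. A ratio over so few peaks rests on single peaks.

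No peak of either list lay near the start of *Bach2*. From the outer start, the nearest was 273879 bases away in wt and 273902 in ΔIkE120, and from the listed start at 32417435 it was 142620 bases away in wt and 142653 in ΔIkE120. The gene thus stood apart from the other 6, all marked at the start. Its peaks were at the far end, over *Bach2os*, a long noncoding RNA gene. There a peak ran from 32560055 to 32561396 in wt (1342 bases, fold enrichment 3.23, -log10 q of 5.57) and from 32560088 to 32560885 in ΔIkE120 (798 bases, 3.09, 3.79), and a wt peak of 238 bases at 32569986 to 32570223 (2.15) had no partner. The longest peak of the window and the one with the highest -log10 q was, in both lists, that at the start of the neighbour *Casp8ap2* (32614891 to 32616438 in wt, 32615366 to 32616451 in ΔIkE120). It was shorter in ΔIkE120, with 1086 bases against 1548, and had the higher fold enrichment, 5.10 against 4.17, and -log10 q, 24.5 against 16.3. With the *Casp8ap2* peak left out, the log2 ratio at *Bach2* was -0.99.

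The sequences before 4 of the starts are given, to show bases of a start inside a peak in both lists (*Myb* and *Satb1*), just outside one (*Lef1*) and far from any (*Bach2*). Each is the 250 bases before a listed start in RefSeq on GRCm38.p6, read 5′ to 3′ on the strand of the gene, and capitals mark matches to the motifs named below.
Myb, chr10:21160985-21161234, minus strand: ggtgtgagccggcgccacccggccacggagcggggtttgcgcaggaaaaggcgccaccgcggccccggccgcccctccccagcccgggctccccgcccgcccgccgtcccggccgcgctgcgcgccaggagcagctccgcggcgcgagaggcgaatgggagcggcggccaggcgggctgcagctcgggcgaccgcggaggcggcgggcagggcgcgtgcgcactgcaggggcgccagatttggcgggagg
Satb1, chr17:51833291-51833540, minus strand: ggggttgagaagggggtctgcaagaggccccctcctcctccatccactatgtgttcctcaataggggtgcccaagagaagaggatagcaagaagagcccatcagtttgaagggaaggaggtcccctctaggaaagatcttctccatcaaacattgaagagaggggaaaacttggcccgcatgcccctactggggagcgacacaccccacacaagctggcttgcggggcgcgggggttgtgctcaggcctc
Lef1, chr3:131110047-131110296, plus strand: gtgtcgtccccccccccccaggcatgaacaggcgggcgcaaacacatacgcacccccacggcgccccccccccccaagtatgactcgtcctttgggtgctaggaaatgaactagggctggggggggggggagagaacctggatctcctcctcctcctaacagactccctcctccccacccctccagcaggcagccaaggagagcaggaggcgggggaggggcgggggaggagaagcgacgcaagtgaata
Bach2, chr4:32417185-32417434, plus strand: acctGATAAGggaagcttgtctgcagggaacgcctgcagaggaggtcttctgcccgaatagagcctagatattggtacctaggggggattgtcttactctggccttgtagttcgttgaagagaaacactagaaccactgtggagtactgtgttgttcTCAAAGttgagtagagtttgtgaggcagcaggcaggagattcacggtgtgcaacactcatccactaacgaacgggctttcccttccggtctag
All 250 bases lay under a peak of both lists at *Myb* and at *Satb1*, and 0 of them at *Lef1* and *Bach2*. The composition differed between *Myb* and *Satb1*. The ratio of observed to expected CpG was 0.97 at *Myb*, with 81.2% G and C, and 0.24 at *Satb1*, with 58.0%. At *Lef1* the ratio was 0.40 and at *Bach2* 0.45. Over all listed starts of protein-coding genes, its median was 0.78 (quartiles 0.61 and 0.92) for those with a peak within 1 kb in both lists and 0.26 (0.12 and 0.50) for those with such a peak in neither. By this rule *Lef1* had a peak in both lists, as *Myb* and *Satb1* did. Among starts with a peak, *Myb* was above the upper quartile, while *Satb1* and *Lef1* were below the lower one. A listed start of *Satb1* further inside the same peak, at 51832647, had a ratio of 1.05.

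Motifs were searched as exact words on both strands: GATAAG (of GATA factors), CTTTGA (TCF and LEF), TGTGGT (RUNX), CAGCTG (E proteins, its own reverse complement), TGGGAA (Ikaros) and GGAAGT (ETS). The last pair share the letters GGAA, so their matches can overlap. Over all 21263 listed starts, the 250 bases held GATAAG in 6.25%, CTTTGA in 12.7%, TGTGGT in 12.4%, CAGCTG in 12.1%, TGGGAA in 20.9% and GGAAGT in 20.4%. Of the sequences shown, that of *Bach2* had 1 match each to GATAAG and CTTTGA and the other three had 0 to any motif. Over the 16 listed starts of the members, GGAAGT was found before 4, CAGCTG before 3, GATAAG and CTTTGA before 2 each, TGGGAA before 1 and TGTGGT before 0. These matches are words in a short window and say nothing of binding.

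The members were set beside related genes from fixed lists. Of 15 other regulators of T lineage specification, 10 had a start peak in wt and 9 in ΔIkE120, where 44.5% and 43.8% of all genes did. *Tox*, which encodes an HMG box factor of CD4 lineage development, had one in wt alone (-log10 q of 5.10), with covered bases of 2519 in wt and 960 in ΔIkE120. The median share of the window under peaks was 5.55% in wt and 4.50% in ΔIkE120, close to that of the members, and the median log2 ratio over the 14 with enough covered bases was -0.18, with 12 below 0, where all genes had a median of -0.12 and 72.6% below 0. *Runx1* had the most covered bases in wt, 16208, and *Ets1* in ΔIkE120, 14358, while *Hes1*, a Notch target, had 0 in both lists.

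Paralogs of the members were marked less. Of 9, 3 had a start peak in both lists (43.4% of all genes), *Bach1*, *Mybl1* and *Mybl2*, and the median share under peaks was 1.30% in wt and 1.25% in ΔIkE120. *Gfi1b* had the most covered bases in wt, 6013, and *Bach1* in ΔIkE120, 6698, and *Gata2* had 0 in both lists. *Tcf7l2* had 0 in wt. So the start of *Bach1* was marked where that of *Bach2* was not, and for *Tcf7*, *Gata3* and *Gfi1* it was the member and not the listed paralogs (*Tcf7l1*, *Tcf7l2*, *Gata1*, *Gata2*, *Gata4* and *Gfi1b*) that had a start peak. For *Myb*, the member and its paralogs *Mybl1* and *Mybl2* all had a start peak in both lists.

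Of 13 regulators of progenitors or other blood lineages, 2 had a start peak, *Spi1* and *Ebf1*, in both lists (43.4% of all genes). The median share under peaks was 0.281% in wt and 0.226% in ΔIkE120, below the 1.74% and 1.54% of all genes. *Lyl1* had the most covered bases in both lists, 6377 in wt and 6889 in ΔIkE120, and *Cebpa*, *Hhex*, *Hoxa9*, *Mef2c* and *Meis1* had 0 in both, with *Bcl11a* at 0 in ΔIkE120. No gene of this list or of the paralogs had a start peak in 1 list alone.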

How the data were processed

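H3K27ac ChIP-seq of wt and ΔIkE120 P5424 cells was used, 1 library each. The submitters' processing notes name Bowtie2 2.3.4.3, Bowtie 1.0.0, deepTools 3.2.1 and MACS2 2.1.1 and the build GRCm38, without saying which step each served here. For each library, the authors gave a list of broad peaks. The deposited columns hold a score, which follows 10 times the -log10 q, a fold enrichment (a linear ratio over background), and a -log10 p-value and -log10 q-value per peak. Reads were not analysed here, so depth is unknown. The 6 libraries of chromosome contacts were not used.

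Peaks were counted, and covered bases summed, in the gene bounds of RefSeq GRCm38.p6 plus 50 kb. Strands came from the RefSeq promoter table for 17492 genes and from GENCODE by symbol or synonym for 4043. The outer gene bound was taken as the start, and the starts of the promoter table as listed starts. Bases by position (upstream, start, body, downstream) are those of whole peaks, also where a peak crosses the end of the window. An overlap was 1 base or more. Ratios over all genes needed 1000 covered bases in either list and at least 1 in both, and a fold of 1.5 either way was the size named. Counting was checked against a base-by-base search in 1000 simulated windows, with 0 differences. All 7 genes are described by their start peak, longest peak, peak with the highest -log10 q and up to 3 peaks per list without a partner. Other peaks named were chosen after their values were seen. Of the marker and related genes, 1 each of the B cell markers and the paralogs is not reported here. Genes and lists were chosen with earlier results of these data known. Python 3.11.15, numpy 2.4.6, pandas 2.3.3 and matplotlib 3.10.9 were used.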

Additional observations from a re-analysis of the deposited data

How the results depend on the processing

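The alternatives were start windows of 2.5 kb, flanks of 10 and 100 kb, only the stronger peaks (a -log10 q no lower than the median of the list), equally many top peaks of both lists, peaks at other genes' starts left out, ratios divided by that of the lists and an overlap of 50%. Any listed start in place of the outer one, any listed start of other genes and the whole analysis of joined regions, with gaps of 10, 12.5 and 15 kb, were added after the data were seen. The number of members with a start peak was 6 in both lists under each setting run for it. With flanks of 10 kb the members had 36 peaks over 35232 bases in wt and 29 over 30031 in ΔIkE120, and with flanks of 100 kb 121 and 110 peaks, since the windows changed. The stronger peaks were 40 in wt and 35 in ΔIkE120, as weaker ones were dropped. With an overlap of 50%, 70.5% of the wt peaks were shared. With equally many top peaks the peak counts were 65 in wt and 70 in ΔIkE120 and the shares 90.8% and 84.3%, so that both orders turned.

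Log2 ratios were read as moved when they changed sign or shifted by over 1.5 fold. Divided by the ratio of the lists, the median was 0.014, *Gata3* 0.080, *Gfi1* 0.0043, *Myb* 0.037 and *Satb1* 0.014. With equally many top peaks *Gata3* was 0.049, with flanks of 10 kb *Gfi1* was 0.020, and with the stronger peaks *Bach2* was -1.41. Division by the ratio of the lists changes no peak and adds the same amount to every log2 ratio. For the other settings, the cause of the shifts beyond the changed set of peaks was not tested. *Bach2* was past 1.5 fold under all but the division (-0.55) and flanks of 100 kb (-0.33). *Tcf7* was above 0 and *Lef1* and *Bach2* below 0 under all settings run.

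No paired analysis was possible because each genotype has 1 library. Extent and fold enrichment are those of called peaks, not of read coverage, and a weak peak missing from a list is missing at its threshold only. The genotypes differ in clone as well as in the deletion, and these cannot be told apart. Windows hold neighbouring genes, so a peak in a window is placed there by distance only.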
